A study of Mus musculus with 4 samples.

Results

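The genes described here are 10 that mark endothelial cells, the cells that line blood vessels: Pecam1, Cdh5, Cldn5, Esam, Eng, Kdr, Flt1, Tek, Tie1 and Vwf. They were chosen by name, and every probe set that the platform annotation pairs with one of these symbols was taken, which gave 15 probe sets for the 10 genes out of 18193 genes with a probe set of a single symbol. RNA came from tumours of iNRAS-475, a mouse melanoma line with an inducible NRAS, injected into the dermis of nude mice that drank 2 mg/ml doxycycline. Tumours of 200 to 500 mm3 were reached after 6 weeks. An Affymetrix array was run on a tumour from a mouse still drinking the drug (the control array) and on a tumour from a mouse off it for 24 h, for 48 h and for 72 h, 1 array for each. All 4 tumours had grown on the drug in the same line and host strain, and a trimmed tumour piece of about 50 mg was used, in which vessels belong to the host. The labels give neither the animals' age and sex nor the promoter of the transgene.

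Endothelial cells are held together by adhesion molecules and tight junction proteins, and they read growth signals through receptor kinases. VEGF-A binds the receptors encoded by Kdr and Flt1; the first carries most of the growth signal, while the second binds VEGF tightly, signals weakly and also exists as a soluble form. Angiopoietins bind the receptor encoded by Tek, with which the related receptor encoded by Tie1 acts in vessel maturation.

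With 1 array per condition no difference has a replicate error and no p-value was computed, and animal, tumour piece and time cannot be told apart. The precision of all values is limited by there being only 4 arrays. Intensities are those of the deposited table, on a linear scale. Differences are on the scale log2(intensity + 32), off minus on unless stated, a scale that understates the differences of dim genes. A difference of 1 or more in size is called 2-fold. Median intensity over all probe sets lay between 33.3 and 34.0 on the 4 arrays. In a piece of tissue, fewer cells of a type and less RNA per cell cannot be told apart.

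Most endothelial genes were higher at 72 h off doxycycline than on it and differed little at 24 and 48 h. By the brightest probe set, 9 of the 10 genes lay above the control at 72 h, the exception being Flt1; among all 18193 genes 43.1% did. At 24 h 1 of the 10, Cdh5, lay above the control (44.2% of all genes), and at 48 h 5 did (42.5% of all genes). The 10 differences ran from -0.28 to 0.22 at 24 h with a median of -0.08, from -0.44 to 0.36 at 48 h with a median of 0.00, and from -0.46 to 1.19 at 72 h with a median of 0.41. The median over all genes was 0.00 at each time. At 72 h 4 genes, Cdh5, Pecam1, Esam and Cldn5, were higher by at least 0.5, which 6.21% of all genes were. Cdh5 alone, 1 of 10, was 2-fold higher, which 1.7% of all genes were. Its difference was 0.60 with its probe sets averaged and 0.61 with a pseudocount 4 times as large, which ends this call. The average takes in a probe set below the minimum level that read the same on all 4 arrays, which shrinks the difference by itself. With no pseudocount Pecam1 and the dim Tek passed as well, at 2.04 and 2.02 times the control intensity. By the brightest probe set 0 of 10 were 2-fold lower, which 1.21% of all genes were. At 24 and 48 h 0 of the 10 were 2-fold different in either direction; of all genes 0.198% and 0.561% were 2-fold higher at these times and 0.0495% and 0.775% were 2-fold lower.

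Since each of these differences uses the same control array, the differences between off arrays were also taken. From 24 h to 72 h the 10 genes had a median difference of 0.52 (72 h minus 24 h), and 9 of 10 were higher at 72 h, against 45.7% of all genes. From 48 h to 72 h the median was 0.42, again with 9 of 10 higher, against 44.5% of all genes. From 24 h to 48 h it was 0.05, with 7 of 10 higher, against 44.8% of all genes. The 72 h array was the highest of the 4 for 9 of the 10 genes and for 24.3% of all genes. These comparisons share the 72 h array, so they are not independent of each other.

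**Figure D1:**
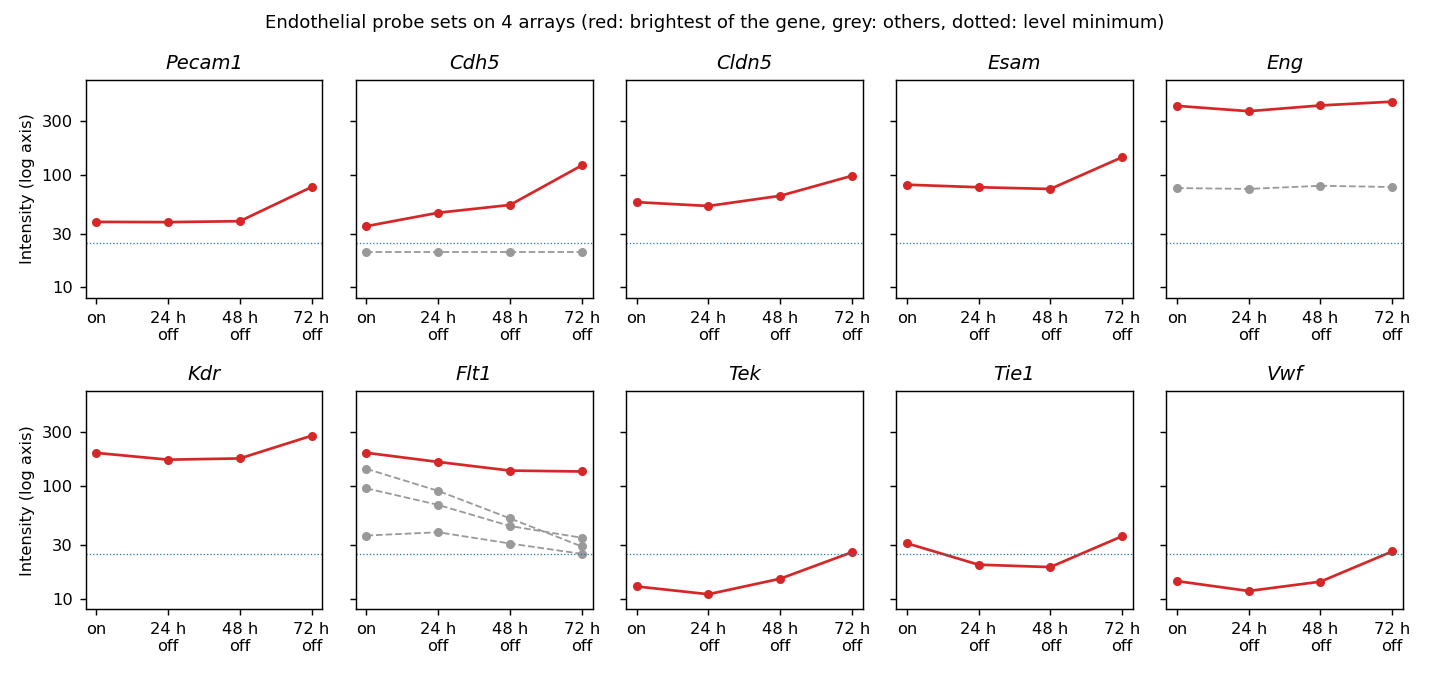
Intensity (log axis) of the 15 endothelial probe sets, 1 panel per gene, on the control array (on) and at 24, 48 and 72 h off doxycycline; red lines are the brightest probe set of each gene, grey dashed lines the others, and the dotted line is the minimum mean intensity, 24.9, used for gene lists. The red line is highest at 72 h for 9 genes and at its lowest there for Flt1.

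Of the adhesion genes, Cdh5 stood furthest above the control. It encodes VE-cadherin, the cadherin of endothelial junctions. Its brighter probe set had an intensity of 34.9 on doxycycline, 45.9 after 24 h, 53.9 after 48 h and 121 after 72 h. It was higher at each later time, and the 72 h value was 3.47 times the control on the linear scale; its differences were 0.22, 0.36 and 1.19. At 72 h 1.20% of all genes had a greater difference. The other Cdh5 probe set, dimmer, read 20.7 on all 4 arrays, exactly equal, and so gave a difference of 0.00 at each time.

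Pecam1, which encodes CD31, an adhesion molecule also carried by platelets and some leukocytes, was flat until 48 h and higher at 72 h. Its intensity was 38.1 on doxycycline, 37.9 after 24 h, 38.6 after 48 h and 77.8 after 72 h. The 72 h value was 2.04 times the control on the linear scale, a difference of 0.65.

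Esam and Cldn5 were also highest at 72 h, but at 48 h Cldn5 lay above the control (0.12) and Esam below it (-0.09). Esam, an immunoglobulin-like adhesion molecule of endothelial tight junctions, read 81.6 on doxycycline, 77.4 after 24 h, 74.7 after 48 h and 143 after 72 h. Cldn5, the claudin that seals endothelial tight junctions, read 57.0 on doxycycline, 52.7 after 24 h, 65.0 after 48 h and 97.8 after 72 h. In both genes the first 3 arrays lay close together and the 72 h array stood above them, with differences of 0.63 for Esam and 0.54 for Cldn5. Each of Pecam1, Esam and Cldn5 has 1 probe set, so no other probe set checks these values.

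Eng differed little on any array. It encodes endoglin, a co-receptor for ligands of the TGF-beta and BMP families that is also found on macrophages and stromal cells. Its brighter probe set read 410 on doxycycline, 368 after 24 h, 413 after 48 h and 447 after 72 h, with differences of -0.15, 0.01 and 0.12. The other read 76.1, 74.8, 79.8 and 77.8 in the same order, and its difference at 72 h was 0.02.

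**Figure D2:**
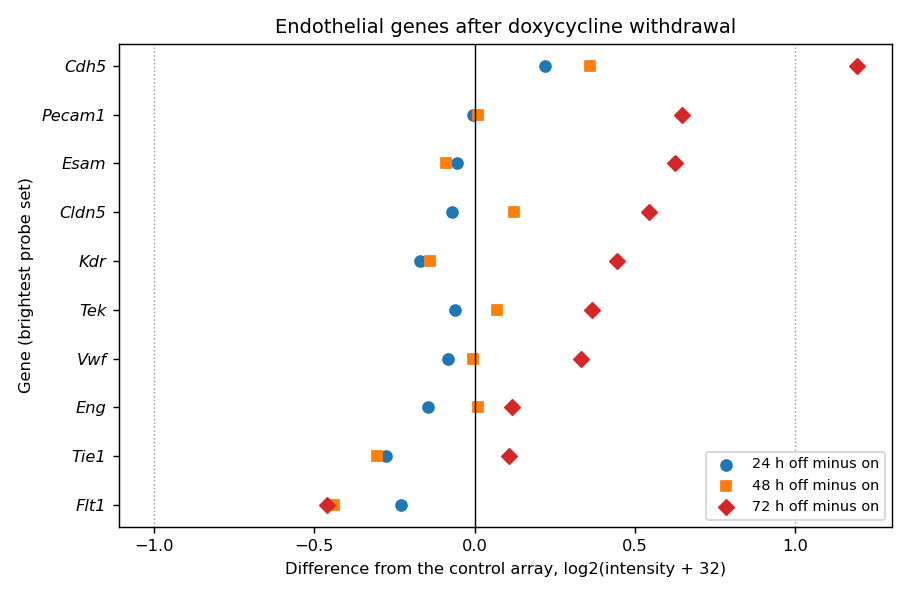
Difference of each gene's brightest probe set from the control array on the log2(intensity + 32) scale at 24 h (circles), 48 h (squares) and 72 h (diamonds); dotted lines mark differences of 1 in size. The 72 h values run from -0.46 for Flt1 to 1.19 for Cdh5, while those at 24 and 48 h stay between -0.44 and 0.36.

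The genes of both VEGF-A receptors differed from the control in opposite directions at 72 h. Kdr, which encodes VEGFR2, read 197 on doxycycline, 172 after 24 h, 176 after 48 h and 281 after 72 h. It was a little below the control at 24 and 48 h (-0.17 and -0.14) and above it at 72 h, by 0.45, or 1.42 times on the linear scale. Flt1, which encodes VEGFR1, was below the control at 48 and 72 h by all 4 of its probe sets. The brightest read 198 on doxycycline, 164 after 24 h, 137 after 48 h and 135 after 72 h, a difference of -0.46 at 72 h. Over all genes 4.53% had a lower difference at that time.

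The other Flt1 probe sets differed in how far they moved. The next brightest had an intensity of 142 on doxycycline, 90.6 after 24 h, 51.6 after 48 h and 29.0 after 72 h, so that 20.4% of the control intensity was left at 72 h. Its differences were -0.51, -1.06 and -1.51, which made it 2-fold lower at 48 and 72 h. Of the 22718 probe sets of single genes above the same minimum level, 0.823% were 2-fold lower at 48 h and 1.42% at 72 h. A probe set with 95.5 on doxycycline read 68.0 after 24 h, 44.1 after 48 h and 34.7 after 72 h, and differed by -0.93 at 72 h. The dimmest read 36.3, 38.9, 30.9 and 25.0 in the same order, with a difference of -0.26 at 72 h. Of the 4, 3 were lower at every step from the control to 72 h, and the dimmest was above the control at 24 h; among all these probe sets 4.17% were lower at every step. Probe sets of one gene can read different transcripts, and the sources used here do not say which Flt1 forms each one reads.

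**Figure D3:**
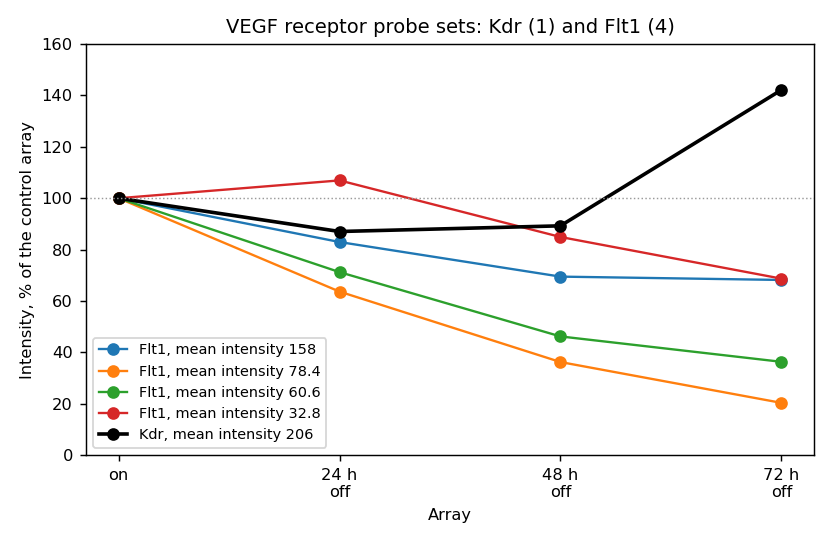
Intensity of the Kdr probe set (black) and of the 4 Flt1 probe sets (colours), each as a percentage of its own value on the control array, on the control and at 24, 48 and 72 h off doxycycline. Kdr stood at 142% of the control at 72 h and the Flt1 probe sets at 20.4% to 68.7%.

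The upstream sequences of these receptor genes are shown because their RNA differed from the control in opposite directions at 72 h. Each is the 250 bases before the annotated start of the gene in RefSeq, build GRCm38.p6, 5′ to 3′ on the gene's strand, which is the minus strand of chromosome 5 for both. Capitals mark matches on either strand to AGGAAG and to TGACGTCA, the cAMP response element. AGGAAG contains GGAA, the core bound by ETS transcription factors, which are active in endothelial cells.
Flt1 (chr5:147726012-147726261): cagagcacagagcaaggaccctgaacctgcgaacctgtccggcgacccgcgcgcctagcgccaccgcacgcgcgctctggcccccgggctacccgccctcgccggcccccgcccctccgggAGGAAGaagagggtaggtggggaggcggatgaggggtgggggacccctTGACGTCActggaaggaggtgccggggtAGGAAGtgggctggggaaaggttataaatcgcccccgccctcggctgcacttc
Kdr (chr5:75978456-75978705): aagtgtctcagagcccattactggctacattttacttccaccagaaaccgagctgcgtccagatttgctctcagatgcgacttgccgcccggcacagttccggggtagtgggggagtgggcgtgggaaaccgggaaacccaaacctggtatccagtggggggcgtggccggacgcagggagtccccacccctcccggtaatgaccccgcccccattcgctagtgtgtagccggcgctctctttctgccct

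The Flt1 window held 2 matches to AGGAAG and 1 to TGACGTCA, and the matches did not overlap, whereas the Kdr window held 0 of either. Over all 32851 such windows 29.5% held AGGAAG and 1.55% held TGACGTCA. Of the 6 endothelial genes with a promoter entry, 3 (Flt1, Eng and Tie1) held AGGAAG and 1, Flt1, held TGACGTCA. The shorter GGAA was not counted, and it also occurs in the Kdr window. A match is a description of letters and not a binding site.

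The angiopoietin receptor genes were dim. Tek read 12.8 on doxycycline, 10.9 after 24 h, 15.0 after 48 h and 25.8 after 72 h. Its mean was below the minimum level used for gene lists, as was that of Vwf, so 8 of the 10 genes passed it. The 72 h value of Tek was 2.02 times the control on the linear scale, and its difference was 0.37. Tie1 read 31.0 on doxycycline, 20.0 after 24 h, 19.0 after 48 h and 35.8 after 72 h, with differences of -0.28, -0.30 and 0.11. It was lowest at 24 and 48 h, and the control and 72 h arrays were close together. Mean intensities were 16.1 for Tek and 16.6 for Vwf, well below the minimum level, and 26.5 for Tie1, just above it.

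Vwf, which encodes von Willebrand factor, the clotting protein stored in endothelial granules and in platelets, had a course like that of Tek. Its intensity was 14.3 on doxycycline, 11.7 after 24 h, 14.1 after 48 h and 26.2 after 72 h, a difference of 0.33 at 72 h. The table gives no detection call, so whether Tek and Vwf were above background on the first 3 arrays is unknown.

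Among the 8 genes above the minimum level Kdr was the closest to the median pattern of the group over the 4 arrays, followed by Pecam1, Esam and Cldn5. The distance was the root mean square of differences between log2 values, each gene centred on its own mean. It was 0.03, 0.06, 0.06 and 0.08 for these genes, 0.13 for Tie1, 0.17 for Eng, 0.26 for Cdh5 and 0.36 for Flt1. Outside the group the closest 5 genes were Dab2, Mypn, Ccn3, Oas2 and Wtip, with distances between 0.01 and 0.03. Dab2 read 166 on doxycycline, 153 at both 24 and 48 h and 240 at 72 h. A likeness over 4 arrays is weak, and 4 genes in all were closer to the pattern than Kdr. The pattern is the median of these same 8 genes, so their closeness to it is partly built in. Of 13522 genes, 31 were closer than Pecam1, 38 than Esam, 98 than Cldn5, 503 than Tie1 and 1193 than Eng. Closer than Cdh5 were 7713 genes, and closer than Flt1 were 11687.

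Ligands and co-receptors of the VEGF receptors moved in both directions. Vegfa, the main ligand, read 249 on doxycycline, 231 after 24 h, 207 after 48 h and 149 after 72 h, a difference of -0.64 at 72 h, with its other probe set at -0.74. Nrp1, a co-receptor for VEGF that is also made outside vessels, read 257 on doxycycline, 311 after 24 h, 516 after 48 h and 842 after 72 h, a difference of 1.59, with its other probe sets between 0.66 and 1.67. Nrp2 was higher by 0.86 at both 48 and 72 h, while its other probe sets ranged from 0.01 to 0.69 at 72 h. Of the 7 genes of this list above the minimum level 5 were above the control at 72 h and 2 below it, the median was 0.23 (0.14 with the dimmer Vegfc), and Nrp1 was the 1 that was 2-fold higher. Of all genes above that level 46.8% lay above the control at 72 h, 2-fold higher genes made up 2.29% and 2-fold lower genes 1.63%, and these shares are the background for the other lists as well.

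Of 5 partners of the TIE receptors 4 were above the control at 72 h. Angpt2, the angiopoietin stored in endothelial granules, read 69.0 on doxycycline, 63.4 after 24 h, 69.2 after 48 h and 116 after 72 h, a difference of 0.55, but its other probe set was at 0.02. Angpt1, made by perivascular cells, was higher by 0.36, 0.35 and 0.51, with its other probe set at 0.06 at 72 h. Svep1, a matrix protein known as a ligand of TIE1, differed by -0.49, -0.31 and 0.54. The list's medians were -0.08, -0.08 and 0.51.

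Genes of BMP and TGF-beta signalling had a median of -0.01 at 72 h, with 5 of 11 above the control and 6 below it. Id1, a target of BMP signalling, read 805 on doxycycline, 717 after 24 h, 185 after 48 h and 167 after 72 h. Tgfb1 and the inhibitor Smad7 differed by -1.41 and -1.35 at 72 h, although their other probe sets were at 0.13 and -0.36. These 3 were the genes of the list that were 2-fold lower at 72 h, and Tgfbr3, at 1.21, was the 1 that was 2-fold higher, with its other probe set at 0.27.

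Notch and tip cell genes had medians of -0.20, -0.10 and 0.00 over the 10 above the minimum level, with 5 of 10 above the control at 72 h. Over all 14 on the array the medians were -0.03, -0.06 and 0.00. Aplnr, the apelin receptor of sprouting vessels, read 53.9 on doxycycline, 58.1 after 24 h, 50.6 after 48 h and 253 after 72 h, a difference of 1.73, but its other probe set was at 0.00. Cxcr4, a chemokine receptor of tip cells and leukocytes, was higher by 1.07 at 72 h and Jag1, a Notch ligand, was lower, at -1.06, with its other probe sets at -0.19 and -0.05.

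Endothelial transcription factor genes had medians of 0.05, -0.14 and 0.14, with 8 of 11 above the control at 72 h. The 3 with the greatest mean size of difference were Klf4 (0.30, -1.20 and -1.07, its other probe set at -0.65 at 72 h), Mef2c (0.74, 1.07 and 0.42, its other probe sets from 0.21 to 0.94 at 72 h) and Foxc2 (-0.30, -0.76 and -0.72), all of which are also expressed in other cells. Klf4 was the 1 gene of the list that was 2-fold lower at 72 h.

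A wider list of 29 genes of endothelium and cell junctions above the minimum level had medians of -0.01, 0.01 and 0.29. At 72 h 24 of them were above the control, 2 below it and 3 equal to it, whereas 46.8% of all genes above that level lay above it. At 48 h 15 of the 29 were above it, against 45.3% of all genes. Those 2-fold higher at 72 h were 4: Jam3, Cd34, Aqp1 and Ramp2. Cd34, a sialomucin of endothelial and stromal progenitor cells, read 31.7 on doxycycline, 31.4 after 24 h, 54.0 after 48 h and 146 after 72 h. Aqp1, a water channel, read 667 on doxycycline, 693 after 24 h, 1561 after 48 h and 1805 after 72 h. Jam3, a junctional adhesion molecule, was higher by 1.68 at 72 h, with its other probe set at 0.00.

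Genes of endothelial activation and granules had a median of 0.00 at 72 h, with 3 of 8 above the control and 3 below it. Vcam1, a leukocyte adhesion molecule, was higher by 0.67, with its other probe sets between -0.01 and 1.39. Plat, tissue plasminogen activator, was lower, at -0.93, with its other probe set at 0.11, and Icam1 was higher by 0.29. Of the lymphatic list 3 genes were above the minimum level, with a median of 0.06 at 72 h (-0.04 over all 5 on the array): Pdpn at 0.90, Flt4 at 0.06 and Reln at -1.34, whose other probe set was at -0.03. Prox1 and Lyve1, which are used as markers of lymphatic endothelium, were at 12.1 and 17.2 on the control array and at 10.8 and 15.2 at 72 h, below the minimum level.

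**Figure D4:**
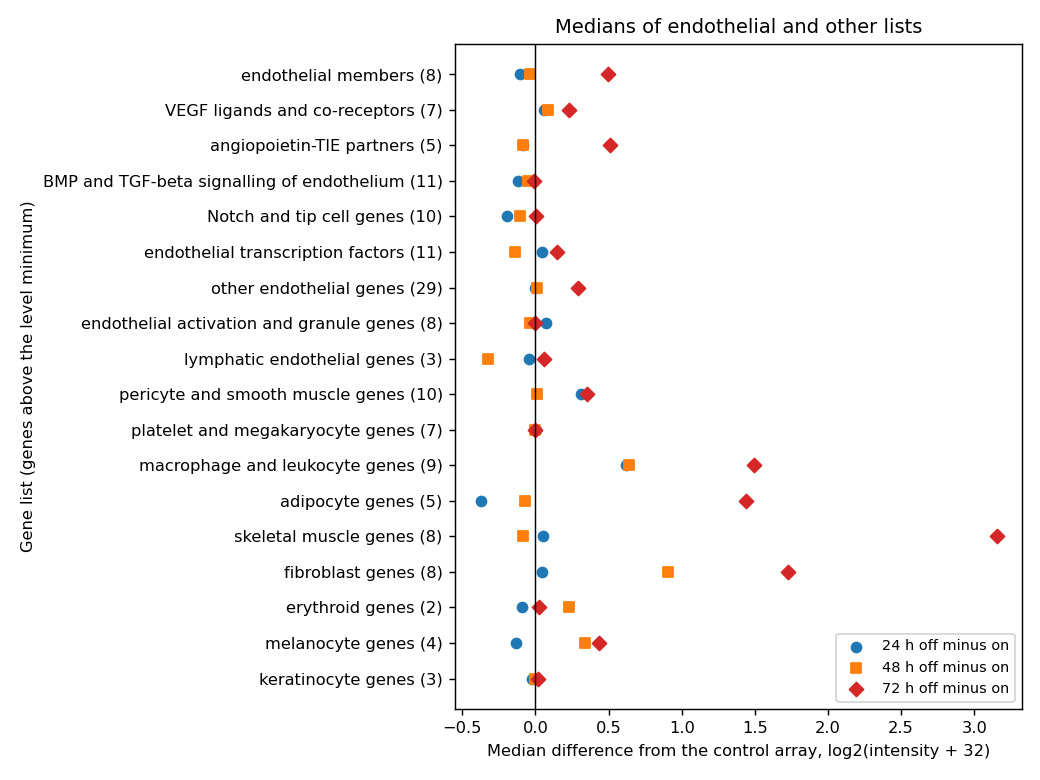
Median difference from the control array on the log2(intensity + 32) scale at 24 h (circles), 48 h (squares) and 72 h (diamonds) for the endothelial genes, top, and 17 other lists, with the number of genes above the minimum level in parentheses. The endothelial median at 72 h, 0.50 over the 8 genes above that level, lies below those of macrophage (1.49), fibroblast (1.73) and skeletal muscle genes (3.15); for adipocyte genes it is 1.44 over the 5 above that level and 0.40 over all 7 on the array, against 0.41 over all 10 endothelial genes.

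Lists of skeletal muscle, adipocyte, fibroblast and macrophage genes were also higher on the 72 h array. Line and host are both mouse, so the array cannot assign these RNAs to host or tumour cells. The summed intensity of the 8 skeletal muscle genes was 313 on doxycycline, 607 after 24 h, 268 after 48 h and 4466 after 72 h, and 7 of 8 were 2-fold higher at 72 h. Myh4 (11.5, 9.88, 11.5 and 470 in the same order) and Tnnt3 (18.6, 18.6, 14.4 and 91.0) passed the minimum level only through the 72 h array. The summed intensity of the 5 adipocyte genes was 509, 275, 625 and 2060 in the same order, with 3 of 5 2-fold higher at 72 h. Acta1, Tnnc2 and Mylpf of the muscle list were higher by 4.12, 3.83 and 3.20 at 72 h, and Adipoq, Fabp4 and Plin4 of the adipocyte list by 2.00, 2.43 and 1.44, with other Fabp4 probe sets between 0.02 and 2.29. Mb of the muscle list was at -0.15 at 72 h, with its other probe set at -0.14. Of the adipocyte list Retn was at -0.07 and Lipe at 0.08, and Lep and Cidec, below the minimum level, were at -0.12 and 0.40. The summed intensity of the 8 fibroblast genes was 17565, 18304, 35400 and 62867, with 6 of 8 2-fold higher, and that of the 9 macrophage and leukocyte genes was 3064, 5771, 5083 and 10244, with 6 of 9 2-fold higher. Col1a1, Dcn and Lum of the fibroblast list differed by 2.24, 2.88 and 3.23 at 72 h, with the other probe sets of Col1a1 and Dcn at 1.52 and 0.17. Pdgfra and Thy1 of the same list were lower at 72 h, at -0.57 and -0.25, with other Pdgfra probe sets between -0.68 and -0.13. Ptprc, Lyz2 and Cybb of the leukocyte list differed by 1.36, 1.82 and 1.97, with the other Ptprc probe set at -0.07 and those of Cybb between 0.57 and 1.37. Itgam and Fcgr1 of the same list were at 0.00 and -0.14 at 72 h, with the other Fcgr1 probe set at 0.33. The summed intensity of the 8 endothelial genes above the minimum level was 1048, 937, 978 and 1338. Such sums mostly follow the brightest genes of each list. The lowest intensity of any probe set was 6.99, so no marker was listed at 0. Muscle and fat hold vessels of their own, and the part of these tissues in the endothelial values was not tested.

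Pericyte and smooth muscle genes, which mark the cells around vessels, had medians of 0.31, 0.01 and 0.36 over the 10 above the minimum level, of which 6 were above the control at 72 h. Over all 13 on the array the medians were 0.03, 0.01 and 0.03. Rgs5, a pericyte gene, read 141 on doxycycline, 223 after 24 h, 252 after 48 h and 555 after 72 h, while differences of its other probe sets ranged from -0.08 to 0.64 at 72 h. Cspg4, also a melanoma antigen, was lower by its brightest probe set, at -1.94, and by its other, at -2.24, and Acta2 was higher by 1.03, 0.73 and 0.53, although its other probe sets lay between -0.11 and 0.00 at 72 h.

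Platelet genes, which share Vwf and Pecam1 with endothelium, had a median of 0.00 at each time, with 3 of 7 above the control at 72 h, and their summed intensity was 567, 555, 628 and 525 from the control to 72 h. Pf4 differed by 0.01, 0.83 and 0.13, Itgb3 by 0.01, -0.50 and -0.60 and Gp6 by -0.12, -0.21 and -0.21. Of the erythroid list 2 genes were above the minimum level, Hba-a2 (-0.12, 0.41 and -0.02) and Alas2 (-0.06, 0.04 and 0.08). Keratinocyte genes had medians of -0.03, 0.00 and 0.02, with Krt5, Krt1 and Krt10 at -0.02, 0.02 and 0.31 at 72 h. Melanocyte genes had medians of -0.13, 0.34 and 0.43 over the 4 above the minimum level and of -0.06, 0.00 and 0.03 over all 7. Mitf and Pmel were at 0.84 and 1.14 at 72 h, with the other Mitf probe set at 0.05, and Dct was at -0.21. Sox10, a melanoma marker, read 3770.5 on doxycycline, 3613 after 24 h, 4681 after 48 h and 3844 after 72 h, with its other probe sets at -0.55 and -0.09 at 72 h, whereas the pigment genes Tyr, Tyrp1 and Mlana were below the minimum level.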

How the data were processed

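Per the labels' protocols, Trizol RNA (10 ug) was labelled with biotin for Affymetrix arrays, 1 array for each of 4 conditions. The deposited table holds a linear intensity for 45037 probe sets. MAS5 and RMA are named in the submitters' processing notes, without role or version, so how the arrays were scaled is unknown. Of these probe sets, 48.0% had exactly equal values on at least 2 arrays, which shrinks differences. Symbols came from the platform annotation, updated through gene IDs to RefSeq: 34945 probe sets had 1 symbol, 932 several and 9160 none listed, and no gene was named from a probe set with several.

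The log2 of intensity plus 32 was taken, with no further normalization, and a gene's brightest probe set by mean intensity stood for it. Genes whose mean reached the 40th percentile over probe sets (24.9), 13522 in all, counted as above the minimum level. That mean includes the 72 h array, so a gene can pass through a high 72 h value alone. Medians and counts at 72 h over genes above that level are therefore not independent of the filter. Counts over all 10 members used genes at any level. No test was fitted, because the 3 times are not replicates. The members and lists were chosen with earlier results of these data known. All members were named; of each other list, the 3 genes with the greatest mean size of difference over the off arrays; and the 5 genes closest in pattern. Tgfbr3, Ramp2, Vegfc, Prox1, Lyve1, Pdgfra, Thy1, Itgam, Fcgr1, Sox10, Tyr, Tyrp1, Mlana, Myh4, Tnnt3, Mb, Retn, Lipe, Lep and Cidec were named once their values were known. The steps were tested on simulated data in which only brighter genes were changed. That test therefore does not cover the dim genes described here. Python 3.11.15, pandas 2.3.3, NumPy 2.4.6 and matplotlib 3.10.9 were used.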

Additional observations from a re-analysis of the deposited data

How the results depend on the processing

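Alternatives were quantile normalization, median scaling, no minimum level or the 60th percentile as the minimum, a gene's probe sets averaged, removal of _x_at and _s_at probe sets, and pseudocounts of 8, of 4 times 32 and none. The values here are over the genes above the minimum level, 8 unless the level was changed. Their median at 72 h was 0.50, and 0.60, 0.30 and 0.64 with pseudocounts of 8, of 4 times 32 and none; for 72 h minus 24 h it was 0.62, and 0.74, 0.32 and 0.86. The 1 gene that was 2-fold higher at 72 h became 0 with probe sets averaged and with the largest pseudocount, and 2 with no pseudocount. The median of the genes' mean difference over the off arrays was 0.10, and 0.21 without the 24 h array, 0.19 without the 48 h array, -0.069 without the 72 h array and 0.05 with quantile normalization. The medians at 24 and 48 h moved by no more than 0.1 under these alternatives. The differences of single genes were taken again under each alternative, which gave 210 values that repeat the same differences. Of these, 33 moved by more than 0.1 and 3 changed sign. Among the 105 whose main value was at least 0.2 in size, 0 changed sign. That count says little, because a change of pseudocount cannot turn a sign. The changes of minimum level and the removal of _x_at and _s_at probe sets left every gene's value as it was. Cdh5 at 72 h ranged from 0.60 to 1.80 and Flt1 from -0.79 to -0.31. The low end for Cdh5 came from averaging with its dim probe set, which was equal on all 4 arrays. No paired analysis was possible because each condition has 1 array. Dim genes such as Tek and Vwf are limited by signal over background, which the table does not give.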
